A study of Mus musculus with 30 samples.

Results

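Ano3, Svop, Anks1b, Klhdc7a, Cd80 and AW112010 are 6 genes whose RNA was higher in fracture callus of P-Apex1KO mice than of wild-type (WT) littermates at each of 6, 10 and 14 days post-fracture (dpf). They were selected on those values, out of 55416 gene IDs in the count table and out of 18537 genes that could be tested at all 3 times, so their levels at 6-, 10- and 14-dpf are described below without a test. With p-values of edgeR's quasi-likelihood test adjusted over all genes (Benjamini-Hochberg), 83 genes were called higher at all 3 times. Ranked by the smallest of their 3 fitted changes, the 6 are among the top 7 of these. The values chosen on are of the same contrast, which makes this no evidence about the 6 genes. At the edge of the group, AW112010 had a smallest log2 fold change of 1.33, beside 1.34 for Eda2r and 1.20 for H2-Aa, which are not among the 6.

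The study fractured the tibia of young adult mice without stabilization and sequenced RNA of the dissected callus, the repair tissue at the break, from 30 mice. P-Apex1KO mice carry Prrx1-Cre and floxed Apex1 on both alleles (Prrx1-Cre+;Apex1 C/C), so that Apex1, a DNA repair endonuclease that also regulates transcription factors by redox, is deleted in cells of the limb bud mesenchyme and their descendants. Blood, immune, vascular, nerve and muscle fibre cells of the callus are not of that lineage and keep the gene. WT littermates are of 3 genotypes, Apex1 C/C or Apex1 C/+ without Cre, or Apex1 C/+ with Prrx1-Cre+/-. All groups thus carry floxed alleles, and the labels do not say which WT mice carry Cre. There were 4 WT (2 female, 2 male) and 4 P-Apex1KO (1 female, 3 male) mice at 3-dpf. At 6-dpf there were 5 WT (3 female, 2 male) and 3 P-Apex1KO (1 female, 2 male). The later times had 4 WT (2 female, 2 male) and 3 P-Apex1KO (1 female, 2 male) at 10-dpf and 4 WT (1 female, 3 male) and 3 P-Apex1KO (all female) at 14-dpf. Each library is 1 mouse, and p-values measure the spread between mice.

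Ano3 belongs to the anoctamin (TMEM16) family of membrane proteins, whose members act as calcium-activated chloride channels or lipid scramblases, and it is best known from neurons. Svop is a transporter-like protein of synaptic vesicles related to the SV2 proteins, and Anks1b (AIDA-1) is an ankyrin-repeat scaffold of the postsynaptic density. Cd80 (B7-1) is a costimulatory ligand on antigen-presenting cells that binds CD28 and CTLA-4 on T cells. AW112010 is an interferon-inducible gene annotated as a long non-coding RNA and known from macrophages and lymphocytes, and Klhdc7a encodes a kelch-domain protein of little known function. None of the 6 is a skeletal gene by name, and in bulk RNA more cells of a type and more RNA per cell cannot be told apart.

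Values are normalised read counts, in CPM (counts scaled to a common library size) after TMM scaling over the 30 libraries. The libraries held 18334389 to 43111491 counts on genes. Before the results, the labels were checked on Apex1 itself. Apex1 at 6-dpf measured 20.7, 25.3, 25.3, 28.9 and 20.8 CPM in the WT mice (mean 24.2 ± 3.48, SD, n = 5) and 15.1, 15.2 and 15.9 CPM in the P-Apex1KO mice (mean 15.4 ± 0.411, SD, n = 3). Apex1 at 10-dpf measured 23.4, 17, 27.1 and 27.5 CPM in the WT mice (mean 23.7 ± 4.9, SD, n = 4) and 14, 16.8 and 15.7 CPM in the P-Apex1KO mice (mean 15.5 ± 1.39, SD, n = 3). Apex1 at 14-dpf measured 19.8, 27.2, 22.9 and 26.2 CPM in the WT mice (mean 24 ± 3.37, SD, n = 4) and 15.1, 18.6 and 14.2 CPM in the P-Apex1KO mice (mean 16 ± 2.35, SD, n = 3). At each of these times every P-Apex1KO mouse was below every WT mouse, with a log2 fold change of -0.67 ± 0.11 (SE) at 6-dpf (adjusted p = 0.0071), -0.65 ± 0.13 at 10-dpf (adjusted p = 0.0278) and -0.29 ± 0.19 at 14-dpf (adjusted p = 0.367). Apex1 at 3-dpf measured 30, 26.5, 33.1 and 31.7 CPM in the WT mice (mean 30.3 ± 2.86, SD, n = 4) and 18.4, 29.1, 27.6 and 34.6 CPM in the libraries labelled P-Apex1KO (mean 27.4 ± 6.71, SD, n = 4). At 3-dpf the first of these libraries was below all WT mice and the last was above all of them. The genotype difference did not pass the test (-0.15 ± 0.19, adjusted p = 0.927). The 4 libraries of that time are therefore called by their label.

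The genes lie on 6 different chromosomes (GRCm39 coordinates). Ano3 (ENSMUSG00000074968) spans chr2:110485546-110781268 on the minus strand, Svop (ENSMUSG00000042078) chr5:114164851-114229631 on the minus strand and Anks1b (ENSMUSG00000058589) chr10:89708785-90809162 on the plus strand. Klhdc7a (ENSMUSG00000078234) spans chr4:139687531-139695337 on the minus strand, Cd80 (ENSMUSG00000075122) chr16:38275923-38316697 on the plus strand and AW112010 (ENSMUSG00000075010) chr19:11021549-11033246 on the minus strand. The promoter windows of the genes, 250 bases before to 50 after a RefSeq start site, were searched on both strands for 6 motifs. RefSeq's table (built on GRCm38.p6) had 10 windows for 5 of the 6 genes, Svop being the other, and each window matched GRCm39 at 1 place. The outer of the 2 Ano3 windows, the Anks1b window that holds the same motif as it, and the single windows of Klhdc7a, Cd80 and AW112010 are shown 5′ to 3′ so that each gene can be read, with motif matches in capitals.
Ano3 promoter window, chr2:110780540-110780839, minus strand: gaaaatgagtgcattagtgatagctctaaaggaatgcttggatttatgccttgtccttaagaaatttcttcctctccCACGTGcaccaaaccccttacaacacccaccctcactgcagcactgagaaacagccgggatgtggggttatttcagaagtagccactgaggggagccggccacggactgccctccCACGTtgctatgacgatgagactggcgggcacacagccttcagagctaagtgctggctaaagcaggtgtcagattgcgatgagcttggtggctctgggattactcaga
Anks1b promoter window, chr10:90665266-90665565, plus strand: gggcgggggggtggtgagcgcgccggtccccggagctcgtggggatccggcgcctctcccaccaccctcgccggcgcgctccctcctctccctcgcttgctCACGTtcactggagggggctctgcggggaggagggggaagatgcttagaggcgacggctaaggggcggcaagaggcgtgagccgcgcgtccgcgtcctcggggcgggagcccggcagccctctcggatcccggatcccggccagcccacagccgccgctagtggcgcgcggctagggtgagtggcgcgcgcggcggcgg
Klhdc7a promoter window, chr4:139695288-139695587, minus strand: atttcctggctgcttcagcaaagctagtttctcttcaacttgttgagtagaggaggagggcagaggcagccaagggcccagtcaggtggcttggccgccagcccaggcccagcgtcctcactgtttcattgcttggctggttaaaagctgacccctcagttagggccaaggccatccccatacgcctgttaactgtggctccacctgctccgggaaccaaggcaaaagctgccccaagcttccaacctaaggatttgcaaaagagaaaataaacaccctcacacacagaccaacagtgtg
Cd80 promoter window, chr16:38279045-38279344, plus strand: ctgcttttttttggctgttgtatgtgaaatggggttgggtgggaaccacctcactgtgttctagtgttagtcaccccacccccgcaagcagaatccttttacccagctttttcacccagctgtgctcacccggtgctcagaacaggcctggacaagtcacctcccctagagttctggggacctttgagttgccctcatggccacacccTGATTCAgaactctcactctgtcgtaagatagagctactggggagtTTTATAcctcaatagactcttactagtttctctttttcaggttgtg
AW112010 promoter window, chr19:11027881-11028180, minus strand: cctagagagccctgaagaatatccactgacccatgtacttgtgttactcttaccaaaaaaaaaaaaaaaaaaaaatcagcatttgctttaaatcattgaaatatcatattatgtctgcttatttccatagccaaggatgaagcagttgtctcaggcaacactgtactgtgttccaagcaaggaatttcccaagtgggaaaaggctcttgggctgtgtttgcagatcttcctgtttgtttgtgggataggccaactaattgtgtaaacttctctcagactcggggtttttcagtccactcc

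The capitals in the Ano3 and Anks1b windows mark the hypoxia response core ACGTG on either strand, in Ano3 2 overlapping matches as a palindrome and 1 nearer the start and in Anks1b 1 match, a motif that 19.7% of 32544 distinct promoter windows of the same length hold. In the Cd80 window they mark the AP-1 motif TGANTCA, held by 7.79% of windows, and the TATA motif TATAAA on the minus strand after the start, held by 13.6%. The Klhdc7a and AW112010 windows held none of the 6 motifs. Of the other windows, the inner Ano3 start had 1 TATA match, and of the other 4 Anks1b windows 1 had the interferon gamma activation site TTCNNNGAA (8.33% of windows) and 1 the interferon response core GAAANNGAA (8.53%). The cyclic AMP response element TGACGTCA (1.8% of windows) was in none. The hypoxia core was thus in 1 of the 2 Ano3 windows and 1 of the 5 Anks1b windows, among 10 windows searched. That is close to the 19.7% of all windows that hold it. The TATA motif was in windows of Ano3 and Cd80, and each of the others in 1 gene at most. With so few windows, nothing is read from these counts. How alike the sequences are was not tested, and a match is a run of letters, not a shown binding site. GC content was 52.0% in the outer Ano3 window, 54.3% in that of Klhdc7a, 49.7% in that of Cd80, 40.0% in that of AW112010 and 47.3% to 76.7% in the 5 of Anks1b.

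Ano3 had the highest level per length in P-Apex1KO of the 3 genes known from synapses and nerve cells. Ano3 at 6-dpf measured 0.625, 0.586, 0.435, 1.32 and 0.82 CPM in the WT mice (mean 0.756 ± 0.341, SD, n = 5) and 8.58, 8.97 and 8.3 CPM in the P-Apex1KO mice (mean 8.62 ± 0.338, SD, n = 3). Ano3 at 10-dpf measured 0.755, 0.868, 0.89 and 0.762 CPM in the WT mice (mean 0.819 ± 0.07, SD, n = 4) and 10.1, 8.79 and 11.1 CPM in the P-Apex1KO mice (mean 9.98 ± 1.16, SD, n = 3). Ano3 at 14-dpf measured 0.243, 0.278, 0.396 and 0.393 CPM in the WT mice (mean 0.328 ± 0.0786, SD, n = 4) and 13.6, 5.2 and 14.3 CPM in the P-Apex1KO mice (mean 11 ± 5.07, SD, n = 3). All P-Apex1KO mice were above all WT mice at each time, and at 14-dpf the second P-Apex1KO mouse was well below the other two. The fitted log2 fold change was 3.49 ± 0.28 at 6-dpf, 3.61 ± 0.18 at 10-dpf and 5.50 ± 0.83 at 14-dpf (SE), and the ratio of the group means was 11.4, 12.2 and 33.7.

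Svop, a synaptic vesicle protein gene, was close to absent from WT callus. Svop at 6-dpf measured 0, 0.0325, 0, 0.0658 and 0 CPM in the WT mice (mean 0.0197 ± 0.0294, SD, n = 5) and 0.718, 0.758 and 0.511 CPM in the P-Apex1KO mice (mean 0.662 ± 0.132, SD, n = 3). Svop at 10-dpf measured 0, 0, 0 and 0 CPM in the WT mice (mean 0 ± 0, SD, n = 4) and 0.96, 0.592 and 0.937 CPM in the P-Apex1KO mice (mean 0.83 ± 0.206, SD, n = 3). Svop at 14-dpf measured 0, 0, 0 and 0.0437 CPM in the WT mice (mean 0.0109 ± 0.0219, SD, n = 4) and 1.73, 0.529 and 1.57 CPM in the P-Apex1KO mice (mean 1.28 ± 0.653, SD, n = 3). Over these 3 times the 13 WT libraries held 4 Svop reads in all, 3 at 6-dpf and 1 at 14-dpf, whereas the P-Apex1KO libraries held 64, 53 and 92. From these counts and the library sizes, the ratio of P-Apex1KO to WT was 35.5 at 6-dpf (95% counting interval 11.6 to 177) and 113 at 14-dpf (19.7 to 4500). With no read in WT at 10-dpf, Svop was at least 23.2-fold higher in P-Apex1KO, taking 3 reads over the WT group as the floor. Intervals and the floor cover counting error only, and fitted fold changes are not given for Svop because they rest on the prior count.

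Anks1b, the postsynaptic scaffold gene, was low in both genotypes. Anks1b at 6-dpf measured 0.156, 0.163, 0.242, 0.428 and 0.373 CPM in the WT mice (mean 0.272 ± 0.123, SD, n = 5) and 1.03, 1.05 and 1.41 CPM in the P-Apex1KO mice (mean 1.16 ± 0.218, SD, n = 3). Anks1b at 10-dpf measured 0.27, 0.411, 0.222 and 0.0897 CPM in the WT mice (mean 0.248 ± 0.133, SD, n = 4) and 1.31, 0.718 and 0.937 CPM in the P-Apex1KO mice (mean 0.99 ± 0.301, SD, n = 3). Anks1b at 14-dpf measured 0.0973, 0.139, 0.198 and 0.175 CPM in the WT mice (mean 0.152 ± 0.0439, SD, n = 4) and 1.52, 0.818 and 1.52 CPM in the P-Apex1KO mice (mean 1.29 ± 0.405, SD, n = 3). The genotypes did not overlap at these times. The log2 fold change was 2.06 ± 0.41 at 6-dpf, 2.15 ± 0.40 at 10-dpf and 3.68 ± 0.75 at 14-dpf, on 13 to 113 reads per group.

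Klhdc7a, the kelch-domain gene, came close to overlapping between the genotypes at 6-dpf and was well apart later. Klhdc7a at 6-dpf measured 2.91, 0.683, 2.01, 1.15 and 1.04 CPM in the WT mice (mean 1.56 ± 0.897, SD, n = 5) and 6.94, 4.4 and 3.1 CPM in the P-Apex1KO mice (mean 4.81 ± 1.95, SD, n = 3). Klhdc7a at 10-dpf measured 0.486, 0.274, 0.845 and 1.12 CPM in the WT mice (mean 0.682 ± 0.376, SD, n = 4) and 3.69, 2.41 and 4.5 CPM in the P-Apex1KO mice (mean 3.53 ± 1.05, SD, n = 3). Klhdc7a at 14-dpf measured 1.02, 0.557, 0.743 and 1.31 CPM in the WT mice (mean 0.908 ± 0.33, SD, n = 4) and 4.23, 4.62 and 4 CPM in the P-Apex1KO mice (mean 4.28 ± 0.315, SD, n = 3). The closest approach was at 6-dpf, where the highest WT mouse, at 2.91 CPM, was just under the lowest P-Apex1KO mouse, at 3.1 CPM. The log2 fold change was 1.94 ± 0.33 at 6-dpf, 2.35 ± 0.39 at 10-dpf and 2.09 ± 0.48 at 14-dpf.

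Cd80, the costimulatory ligand, was measured in every library. Cd80 at 6-dpf measured 3.25, 3.48, 4.09, 4.05 and 4.1 CPM in the WT mice (mean 3.79 ± 0.398, SD, n = 5) and 10.6, 13.1 and 11.7 CPM in the P-Apex1KO mice (mean 11.8 ± 1.21, SD, n = 3). Cd80 at 10-dpf measured 2.21, 2.01, 4.27 and 3.09 CPM in the WT mice (mean 2.9 ± 1.03, SD, n = 4) and 10.3, 10.3 and 12.5 CPM in the P-Apex1KO mice (mean 11 ± 1.26, SD, n = 3). Cd80 at 14-dpf measured 3.8, 4.83, 5.94 and 3.85 CPM in the WT mice (mean 4.6 ± 1.01, SD, n = 4) and 15, 10 and 14.7 CPM in the P-Apex1KO mice (mean 13.2 ± 2.8, SD, n = 3). The lowest P-Apex1KO value at any of these times was 10 CPM and the highest WT value was 5.94 CPM. The log2 fold change was 1.64 ± 0.15 at 6-dpf, 1.89 ± 0.20 at 10-dpf and 1.83 ± 0.35 at 14-dpf.

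AW112010, the interferon-inducible transcript, had the highest level per length of the 6 in both genotypes. AW112010 at 6-dpf measured 8.16, 5.37, 5.59, 5.66 and 14 CPM in the WT mice (mean 7.75 ± 3.66, SD, n = 5) and 18.2, 16.2 and 15.8 CPM in the P-Apex1KO mice (mean 16.7 ± 1.32, SD, n = 3). AW112010 at 10-dpf measured 3.18, 2.19, 5.47 and 4.4 CPM in the WT mice (mean 3.81 ± 1.43, SD, n = 4) and 13.7, 8.16 and 12.2 CPM in the P-Apex1KO mice (mean 11.4 ± 2.87, SD, n = 3). AW112010 at 14-dpf measured 4.77, 4.36, 3.56 and 4.59 CPM in the WT mice (mean 4.32 ± 0.532, SD, n = 4) and 13.3, 18.3 and 14.5 CPM in the P-Apex1KO mice (mean 15.4 ± 2.59, SD, n = 3). At 6-dpf 1 WT mouse, at 14 CPM, came close to the P-Apex1KO mice, while the other 4 stayed at 8.16 CPM or less. The log2 fold change was 1.33 ± 0.26 at 6-dpf, 1.58 ± 0.31 at 10-dpf and 1.71 ± 0.28 at 14-dpf.

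**Figure D1:**
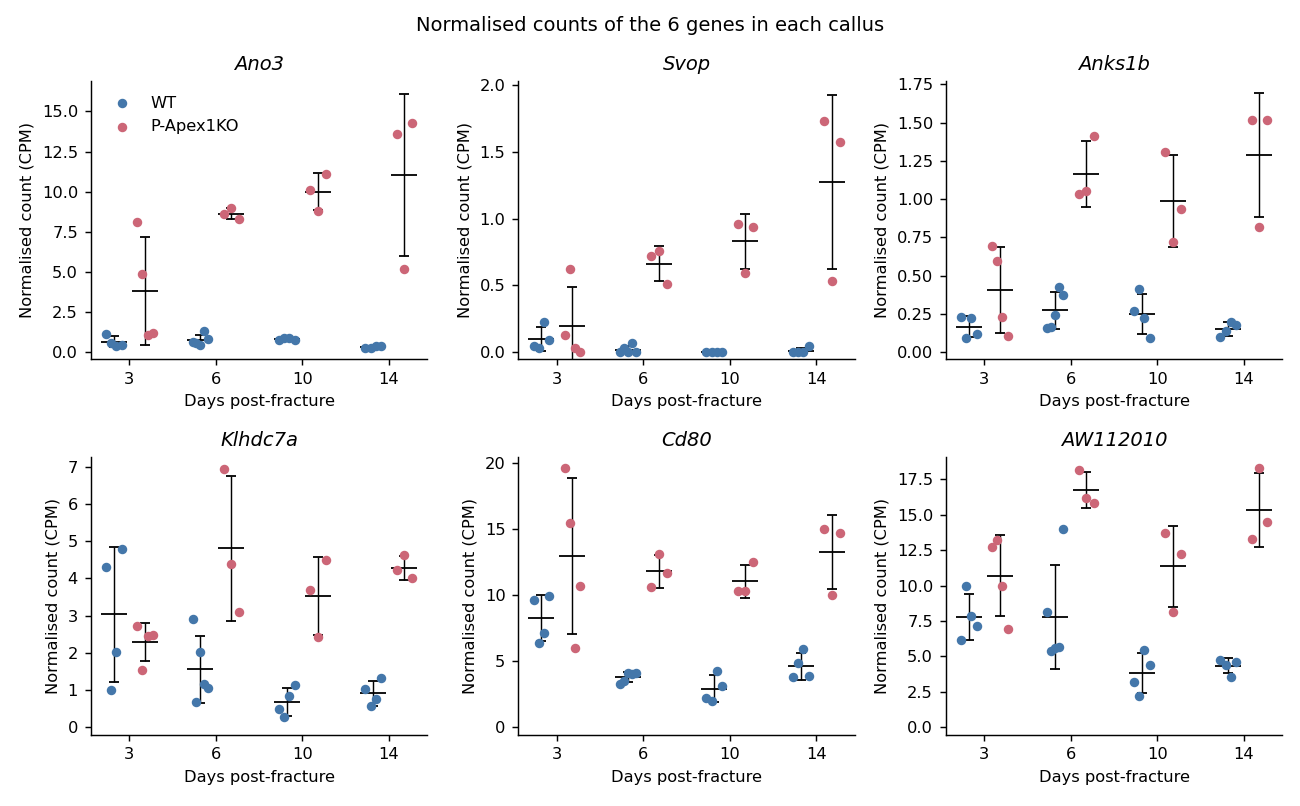
Normalised counts (CPM, linear axis starting near 0, a scale of its own per gene) of the 6 genes in each of 30 calluses by days post-fracture, WT in blue and P-Apex1KO in red, with the group mean and SD in black. From 6-dpf on every red point is above every blue point, and at 3-dpf the libraries labelled P-Apex1KO overlap WT in all 6 panels.

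Complete separation of the genotypes was not rare in these libraries. Every P-Apex1KO mouse was above every WT mouse in 8.79% of genes at 6-dpf, 8.8% at 10-dpf and 18.5% at 14-dpf, and since this is what the 6 genes were selected on, nothing is read from their 6 of 6. The share of tested genes called higher was 5.31% at 6-dpf, 3.01% at 10-dpf and 4.28% at 14-dpf, and the share called lower was 5.61%, 3.44% and 7.04%. Median log2 fold changes over all genes tested were 0.01, 0.00 and 0.04. When libraries were scaled by their size alone, these medians moved to 0.20, 0.08 and 0.31. Of the called genes 77.4% rather than 48.6% were then higher at 6-dpf, 64.7% rather than 46.7% at 10-dpf and 71% rather than 37.8% at 14-dpf. The 6 genes were higher under each scaling. At 14-dpf sex and genotype are nearly confounded, and with sex in the model the difference rests on the 1 WT female. It had 0.243 CPM of Ano3, 0 of Svop, 0.0973 of Anks1b, 1.02 of Klhdc7a, 3.8 of Cd80 and 4.77 of AW112010, all below every P-Apex1KO mouse.

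**Figure D2:**
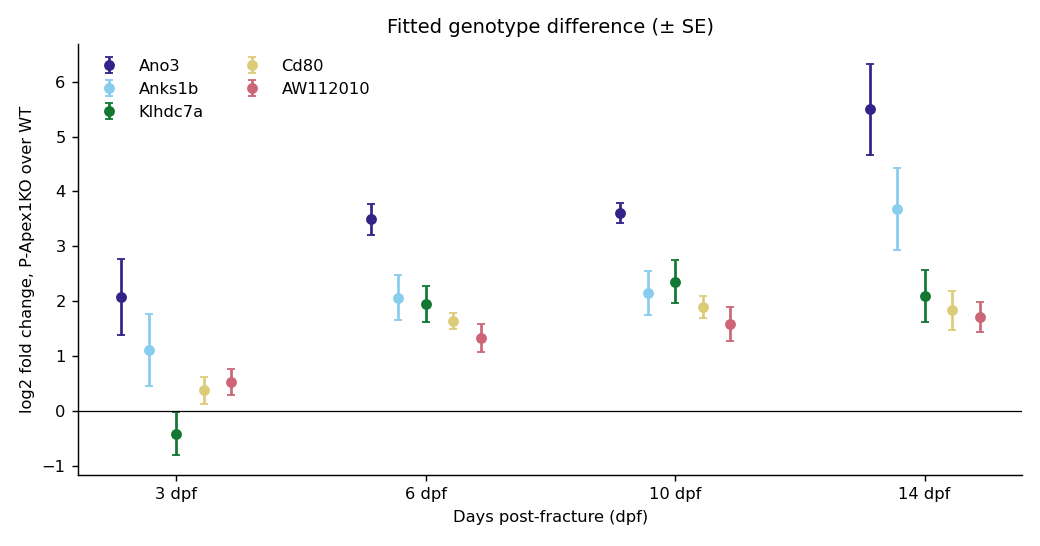
Fitted log2 fold change of P-Apex1KO over WT (points) with its SE (bars) for 5 of the 6 genes by days post-fracture, Svop being left out because its WT counts are at or near 0. At 6-, 10- and 14-dpf all points lie between 1.33 and 5.50, and at 3-dpf they lie between -0.42 and 2.08.

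Levels between genes can be compared only per length. Per kilobase of exon, averaged over 6-, 10- and 14-dpf, P-Apex1KO mice had 7.28 CPM of AW112010, 2.91 of Cd80, 1.32 of Ano3, 0.539 of Klhdc7a, 0.144 of Svop and 0.0757 of Anks1b. Each of the 9 P-Apex1KO mice had this order but for 1 mouse in which Svop was not above Anks1b. In the 13 WT mice the order was AW112010 (2.76), Cd80 (0.912), Klhdc7a (0.139), Ano3 (0.086), Anks1b (0.0151) and Svop (0.0017). All WT mice had it except for Klhdc7a and Ano3, whose order held in 9 of 13, so these neighbours did not differ beyond their spread. Ano3 thus stood above Klhdc7a per length in every P-Apex1KO mouse of these times, and Svop went from the last place to the place above Anks1b.

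The 3-dpf callus, taken as inflammation ends and repair starts, was not used to choose the genes and gives a test of the genotype difference. Ano3 at 3-dpf measured 1.16, 0.564, 0.414 and 0.47 CPM in the WT mice (mean 0.652 ± 0.344, SD, n = 4) and 8.11, 4.9, 1.08 and 1.17 CPM in the libraries labelled P-Apex1KO (mean 3.81 ± 3.37, SD, n = 4). Cd80 at 3-dpf measured 9.6, 6.4, 7.15 and 9.93 CPM in the WT mice (mean 8.27 ± 1.76, SD, n = 4) and 19.6, 15.5, 6.01 and 10.7 CPM in the libraries labelled P-Apex1KO (mean 13 ± 5.9, SD, n = 4). The first and second libraries labelled P-Apex1KO were above all WT mice for both genes, whereas the other two were near the WT range. Anks1b at 3-dpf measured 0.228, 0.094, 0.226 and 0.118 CPM in the WT mice (mean 0.166 ± 0.0704, SD, n = 4) and 0.694, 0.593, 0.227 and 0.106 CPM in the libraries labelled P-Apex1KO (mean 0.405 ± 0.283, SD, n = 4). AW112010 at 3-dpf measured 6.14, 10, 7.86 and 7.14 CPM in the WT mice (mean 7.8 ± 1.65, SD, n = 4) and 12.7, 13.2, 10 and 6.93 CPM in the libraries labelled P-Apex1KO (mean 10.7 ± 2.91, SD, n = 4). The same first and second libraries were the highest of the 8 for Anks1b and for AW112010. Klhdc7a at 3-dpf measured 4.3, 1, 2.03 and 4.79 CPM in the WT mice (mean 3.03 ± 1.81, SD, n = 4) and 2.71, 1.53, 2.44 and 2.47 CPM in the libraries labelled P-Apex1KO (mean 2.29 ± 0.521, SD, n = 4). Svop at 3-dpf measured 0.0455, 0.0313, 0.226 and 0.0882 CPM in the WT mice (mean 0.0977 ± 0.0887, SD, n = 4) and 0.126, 0.624, 0.0283 and 0 CPM in the libraries labelled P-Apex1KO (mean 0.195 ± 0.291, SD, n = 4). Klhdc7a showed no such pattern, its 2 highest values being of male WT mice, and for Svop 20 of the 25 reads in libraries labelled P-Apex1KO came from the second of them.

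None of the 5 genes that passed the filter at 3-dpf passed the test. The log2 fold change was 2.08 ± 0.69 (SE) for Ano3 (adjusted p = 0.768), 1.11 ± 0.66 for Anks1b (adjusted p = 0.862), -0.42 ± 0.39 for Klhdc7a (adjusted p = 0.903), 0.37 ± 0.24 for Cd80 (adjusted p = 0.871) and 0.53 ± 0.24 for AW112010 (adjusted p = 0.828). Of these 5, only Ano3 had an unadjusted p of edgeR's test under 0.05 (0.0168). Over all genes edgeR called 0 of 19866 at 3-dpf (0%), with 1216 at an unadjusted p under 0.05. DESeq2 called 85, none of them among the 5 (Ano3 at an adjusted p of 0.0578). With the spread taken from all 30 samples in 1 model, Ano3 passed at 3-dpf (log2 fold change 2.34, adjusted p = 0.0411), the other 4 did not. Svop did not pass the filter, with 12 reads in WT and 25 in the libraries labelled P-Apex1KO, a ratio of 2.23 (95% counting interval 1.08 to 4.88). An exact two-sided permutation test of its CPM gave p = 0.771, the smallest possible being 0.0286. Every library labelled P-Apex1KO was above every WT mouse in 1.98% of genes at 3-dpf, and in none of the 6. Leaving out the first of these libraries, which had the lowest Apex1, brought the change of Ano3 to 1.61, and leaving out the third brought it to 2.53.

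**Figure D3:**
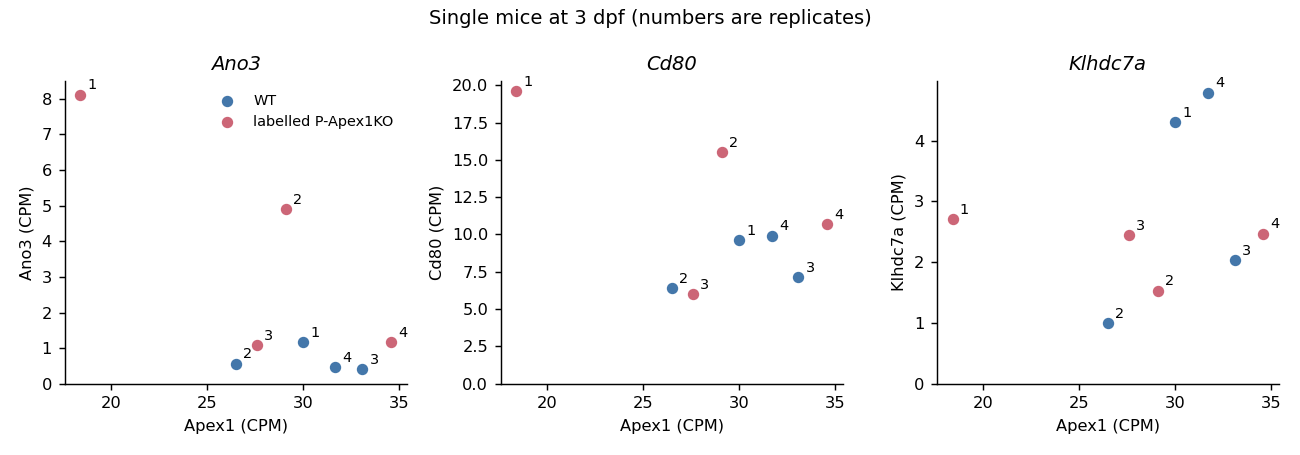
Single mice at 3-dpf, with Apex1 (CPM) on the x axis and Ano3, Cd80 or Klhdc7a (CPM) on the y axis, WT in blue and libraries labelled P-Apex1KO in red, numbered by replicate. The library with the lowest Apex1 (18.4 CPM) has the highest Ano3 (8.11 CPM) and Cd80 (19.6 CPM), but the second, at 29.1 CPM of Apex1, has more of both (4.9 and 15.5 CPM) than the third, at 27.6 CPM (1.08 and 6.01 CPM).

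Sex was tested in a model of all 30 samples with the 8 groups and sex. Of all genes tested, 131 of 20642 (0.635%) were called. None of the 6 genes was. Cd80 was higher in males by 0.45 ± 0.13 (log2, SE) and did not pass edgeR's test (unadjusted p = 0.00161, adjusted p = 0.108). It was the 1 gene of the 6 with an unadjusted p under 0.05, and DESeq2 called it (adjusted p = 0.0231). Its mean was 9.77 CPM in male and 6.77 in female WT mice at 3-dpf and 15.3 and 6.01 in libraries labelled P-Apex1KO, where the female value is of 1 library. Male and female P-Apex1KO mice had 12.4 and 10.6 CPM at 6-dpf and 11.4 and 10.3 at 10-dpf, with 1 female at each time. Male and female WT mice had 3.76 and 3.81 CPM at 6-dpf, 3.68 and 2.11 at 10-dpf and 4.87 and 3.8 at 14-dpf. The male minus female difference was 0.53 ± 0.29 for Ano3, 0.28 ± 0.56 for Svop, 0.04 ± 0.28 for Anks1b, 0.04 ± 0.27 for Klhdc7a and -0.18 ± 0.16 for AW112010, with adjusted p from 0.408 to 0.970.

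How the 6 genes vary among mice of the same group was not used to choose them, but it is not free of the choice. Where mice of a P-Apex1KO group differ in how far they show the genotype difference, genes chosen for that difference deviate together. The libraries labelled P-Apex1KO at 3-dpf differed so for Ano3 and Anks1b. The permutation p below are thus not independent of the choice. After the mean of each of the 8 groups was taken away, Ano3 and Anks1b deviated together over the 30 mice (Pearson's r = 0.74, Spearman's rho = 0.73, permutation p within groups 0.00138 and 0.00071, adjusted over 21 pairs 0.029 and 0.0149). Without the 2 mice farthest from the median of Ano3, r was 0.71. Without the 4 libraries labelled P-Apex1KO at 3-dpf it was 0.57, and no p was computed for these smaller sets. It was 0.80 in the 16 mice of 3- and 6-dpf and 0.61 in the 14 of 10- and 14-dpf, whose samples are named in another way. Ano3 and Cd80 (r = 0.68, rho = 0.60, adjusted permutation p = 0.0551 and 0.0751), Svop and Anks1b (r = 0.61, rho = 0.50, 0.113 and 0.193) and Ano3 and Svop (r = 0.58, rho = 0.49, 0.42 and 0.254) did not pass the adjustment. Klhdc7a had an r of -0.22 to 0.22 with the other 5 genes, and AW112010 one of 0.09 to 0.22. Against Apex1, r was -0.42 for Ano3 and -0.45 for Anks1b (adjusted permutation p = 0.475 and 0.42). Without the 4 libraries labelled P-Apex1KO at 3-dpf it was -0.14 and -0.26.

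**Figure D4:**
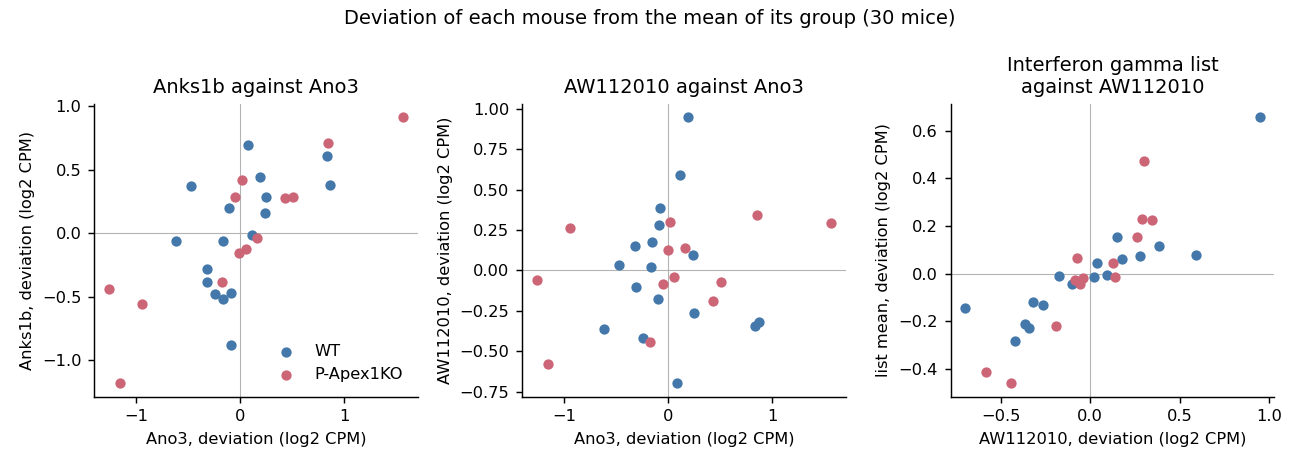
Deviation of each of 30 mice from the mean of its group (log2 CPM), WT in blue and P-Apex1KO in red, for Anks1b against Ano3, AW112010 against Ano3 and the mean of the interferon gamma list against AW112010. Anks1b rises with Ano3 (r = 0.74) and the list with AW112010 (r = 0.87), while AW112010 shows little order with Ano3 (r = 0.17).

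Over all 30 samples, where time and genotype are shared by every gene that differs between the groups, the protein-coding genes most like each gene (of 13796 with a mean of at least 1 CPM, by Pearson's r of log2 CPM) fell into separate sets. Ano3 was most like Ccng1 (r = 0.96), Ephx1 (0.95) and Igsf9b (0.93). Svop was most like Ano3 (0.90), Ephx1 (0.88) and Ccng1 (0.87), and Anks1b most like Ano3 (0.93), Ephx1 (0.92) and Igsf9b (0.89). With the group means taken away, these r were 0.76, 0.81 and 0.70 for Ano3, 0.58, 0.46 and 0.45 for Svop, and 0.74, 0.53 and 0.61 for Anks1b. Ccng1, encoding cyclin G1, and Ephx1, encoding microsomal epoxide hydrolase, are known p53 targets, and Igsf9b is an adhesion molecule of inhibitory synapses. Genes picked for likeness to genes chosen on these contrasts tend to differ in the same contrasts. Their calls and adjusted p are therefore a description and no separate evidence. The same holds below for the genes most like Klhdc7a, Cd80 and AW112010. Ccng1 was called higher in P-Apex1KO by 0.84 ± 0.10 (log2, SE) at 6-dpf, 0.92 ± 0.09 at 10-dpf and 0.93 ± 0.14 at 14-dpf (adjusted p = 0.00143, 0.00509 and 0.00695). Ephx1 was called higher by 1.20 ± 0.16, 1.58 ± 0.12 and 1.99 ± 0.24 (adjusted p = 0.00296, 0.00347 and 0.00285). Igsf9b was called at 6-dpf (1.11 ± 0.19, adjusted p = 0.00711) and 10-dpf (0.72 ± 0.16, adjusted p = 0.037), and not at 14-dpf (1.24 ± 0.38, adjusted p = 0.0766).

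A list of 16 p53 target genes, written after these values had been seen and so given without a test, had its median at 0.29 (log2 fold change) at 3-dpf, 0.69 at 6-dpf, 0.59 at 10-dpf and 0.52 at 14-dpf. Its summed level was 816 to 900 CPM in WT and 1180 to 1470 CPM in P-Apex1KO at 6-dpf, and 798 to 904 against 1150 to 1440 CPM at 14-dpf. Within groups the deviations of its mean went with those of Ano3 at r = 0.87 (0.82 without the 2 farthest mice), of Cd80 at 0.64 (0.48), of Svop at 0.62 (0.44) and of Anks1b at 0.60 (0.36), and with those of AW112010 at 0.29 and of Klhdc7a at 0.05. Without the 4 libraries labelled P-Apex1KO at 3-dpf, r was 0.71 for Ano3, 0.46 for Cd80, 0.40 for Svop and 0.21 for Anks1b, so that the last of these rests on those libraries. The list was written knowing that p53 targets were among the genes most like Ano3, Svop and Anks1b. Its largest change at 10-dpf, 1.58, equals that of Ephx1, which is among those genes. A high r is therefore partly built in, and nothing is read from these r.

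Klhdc7a was most like Chp2 (r = 0.85), Tnfsf15 (0.84) and Tshr (0.83) over the 30 samples (0.64, 0.60 and 0.60 within groups), genes of a calcineurin-like protein, a TNF family cytokine and the thyrotropin receptor. Tshr, which fat tissue also expresses, was called higher at 6-dpf (0.66 ± 0.17, adjusted p = 0.0353), 10-dpf (1.30 ± 0.28, adjusted p = 0.0326) and 14-dpf (1.30 ± 0.29, adjusted p = 0.0274). Chp2 was called at 6-dpf (1.03 ± 0.26, adjusted p = 0.0328) and 10-dpf (0.77 ± 0.19, adjusted p = 0.0475) and not at 14-dpf (0.46 ± 0.26, adjusted p = 0.303). Tnfsf15 was called at 6-dpf alone (1.18 ± 0.24, adjusted p = 0.0156; 0.224 and 0.239 later). An adipocyte list of 8 genes, also written after values had been seen, had a summed level of 121 to 307 CPM in WT and 215 to 437 in P-Apex1KO at 6-dpf, 73.6 to 97.8 against 141 to 242 at 10-dpf, and 145 to 201 against 148 to 452 at 14-dpf. Its median log2 fold change was -0.52 at 3-dpf, 1 at 6-dpf, 1.59 at 10-dpf and 0.07 at 14-dpf, where 4 of 8 genes were above 0. Within groups its mean deviated with Klhdc7a at r = 0.71 (0.69 without the 2 farthest mice, 0.73 at 3- and 6-dpf and 0.67 at 10- and 14-dpf), while for the other 5 genes r ran from -0.56 to 0.17. Since the list was written after values had been seen, nothing is read from these r. The part of fat in the Klhdc7a difference was not tested.

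Cd80 was most like Gpr65 (r = 0.89), a proton-sensing receptor of leukocytes, Glipr1 (0.89) and Ly86 (0.88), the MD-1 partner of a B cell and macrophage receptor, but within groups r was 0.58, 0.26 and 0.30. All 3 were called higher at 6-, 10- and 14-dpf, Ly86 by 1.23 ± 0.13, 1.14 ± 0.26 and 1.34 ± 0.20 (log2, SE; adjusted p = 0.0012, 0.0464 and 0.00686). AW112010 was most like H2-T22, Gbp5 and Igtp (each r = 0.91), an MHC class I gene and 2 interferon-induced GTPases, with 0.76, 0.81 and 0.83 within groups. H2-T22 was called at 10-dpf alone (0.77 ± 0.15, adjusted p = 0.0244) and Gbp5 at 14-dpf alone. Igtp was called at 14-dpf only (1.32 ± 0.19, adjusted p = 0.00527), with 0.75 ± 0.29 at 6-dpf (adjusted p = 0.13) and 1.36 ± 0.47 at 10-dpf (adjusted p = 0.142).

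Interferon gamma is made by T and NK cells and switches on guanylate-binding proteins, antigen presentation genes and chemokines, and a list of 37 such genes was read beside AW112010. At 6-dpf 12 of 36 tested were called higher and 0 lower, at 10-dpf 10 of 34 and 0, and at 14-dpf 8 of 35 and 1, with medians of 0.72, 0.83 and 0.66. Cxcl10, a chemokine for T cells, rose by 2.18 ± 0.33 (log2, SE) at 6-dpf (adjusted p = 0.00454) and by 2.65 ± 0.46 at 14-dpf (adjusted p = 0.0115), and Cxcl9 by 2.48 ± 0.27 at 14-dpf (adjusted p = 0.00202). H2-Aa, an MHC class II gene, rose by 1.35 ± 0.11 at 6-dpf (adjusted p = 0.000389), 1.20 ± 0.25 at 10-dpf (adjusted p = 0.0442) and 1.37 ± 0.25 at 14-dpf (adjusted p = 0.0155). H2-Eb1 rose by 1.26 ± 0.27 at 10-dpf (adjusted p = 0.0486) and Fcgr1, an antibody receptor, by 1.06 ± 0.19 (adjusted p = 0.0214). Both were also called at 6-dpf (1.32 ± 0.11 and 1.11 ± 0.18, adjusted p = 0.000423 and 0.00553). Batf2 rose by 1.72 ± 0.45 at 6-dpf (adjusted p = 0.0397) and Gbp5 by 1.64 ± 0.25 at 14-dpf (adjusted p = 0.00717). At 3-dpf 0 of 36 were called, with a median of 0.36. Within groups, the deviations of AW112010 and of the list mean were the closest of 84 pairs of gene and list (r = 0.87, rho = 0.93, permutation p = 1e-05 for each, the smallest that 100000 permutations can give, adjusted 0.00084). Without the 2 mice farthest from the median of AW112010, r was 0.85, and it was 0.98 at 3- and 6-dpf and 0.70 at 10- and 14-dpf. The list was chosen with earlier results of these data known, and it holds Gbp5 and Igtp, which are among the genes most like AW112010. Its p is therefore not that of a list fixed beforehand. The other 83 pairs did not pass the adjustment, the nearest being Ano3 with the B cell list (r = -0.82, rho = -0.59, adjusted p = 0.0524 and 0.147) and with the dendritic cell list (r = -0.63, rho = -0.64, adjusted p = 0.0524 and 0.0676).

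Of the genes that act with Cd80 in costimulation and its checkpoints, 6 of 24 tested were called higher and 0 lower at 6-dpf, 1 of 21 higher and 1 lower at 10-dpf, and 6 of 22 higher and 2 lower at 14-dpf, with medians of 0.58, 0.40 and 0.96. Cd86, the other B7 ligand of CD28, rose by 1.00 ± 0.17 (log2, SE) at 6-dpf (adjusted p = 0.00678), 0.93 ± 0.18 at 10-dpf (adjusted p = 0.0275) and 1.71 ± 0.25 at 14-dpf (adjusted p = 0.0055). Icos, a receptor of activated T cells, rose by 1.90 ± 0.33 at 6-dpf (adjusted p = 0.00804) and 1.82 ± 0.41 at 14-dpf (adjusted p = 0.0295). Pdcd1, the checkpoint receptor PD-1, rose by 1.77 ± 0.37 at 6-dpf (adjusted p = 0.0178) and 4.39 ± 0.82 at 14-dpf (adjusted p = 0.0149). Its means at 14-dpf were 0.174 CPM in WT and 1.12 CPM in P-Apex1KO. Vtcn1 rose by 3.42 ± 0.88 at 14-dpf (adjusted p = 0.0451), with means of 0.612 CPM in WT and 2.1 CPM in P-Apex1KO. For both genes the means at 14-dpf differ less than the fitted change, which with sex in the model rests on the 1 WT female. Cd276, a B7 family member also made by mesenchyme, was lower at 10-dpf (52 CPM against 106 in WT, adjusted p = 0.0223) and 14-dpf (49 against 152, adjusted p = 0.039), and Tnfrsf9 changed by -1.91 ± 0.25 at 14-dpf (adjusted p = 0.00393). At 3-dpf 0 of 22 were called, with a median of 0.05.

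Taking the interferon gamma and costimulation lists as 1, 18, 11 and 14 genes were called higher at 6-, 10- and 14-dpf, and these counts moved with single mice. At 6-dpf the count was 11 without WT replicate 2, WT replicate 4 or P-Apex1KO replicate 1, and 34 without WT replicate 5, the mouse with the high AW112010. At 10-dpf it was 0 without WT replicate 1, WT replicate 2 or P-Apex1KO replicate 1, 1 without P-Apex1KO replicate 3 and 24 without P-Apex1KO replicate 2. At 14-dpf it was 8 without WT replicate 2 or 4, 9 without WT replicate 3 and 24 without P-Apex1KO replicate 1, and at 3-dpf it was 4 rather than 0 without replicate 4 of the libraries labelled P-Apex1KO.

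Of the cells known to express Cd80 or AW112010, macrophages had the most markers called, in both directions at 14-dpf. Of 12 macrophage markers 9 were called higher at 6-dpf, 7 at 10-dpf and 7 at 14-dpf (where Cd68 and Csf1r were lower). Their summed level was 1750 to 2190 CPM in WT and 2930 to 3360 in P-Apex1KO at 6-dpf, 1140 to 1890 and 1990 to 2460 at 10-dpf, and 1890 to 1970 and 2360 to 2680 at 14-dpf. C1qa, a complement gene of tissue macrophages, rose by 0.87 ± 0.10 (log2, SE) at 6-dpf (adjusted p = 0.00153), 0.93 ± 0.12 at 10-dpf (adjusted p = 0.00989) and 1.29 ± 0.29 at 14-dpf (adjusted p = 0.0314). Cd68, a lysosomal protein also abundant in osteoclasts, changed by -1.38 ± 0.15 at 14-dpf (adjusted p = 0.00184), the largest called change of the list there, and Csf1r, the receptor for M-CSF, by -1.12 ± 0.11 (adjusted p = 0.00113). Of 13 T and NK cell markers 8 were called higher at 6-dpf, 4 at 10-dpf and 1 at 14-dpf. Their summed level was 48.7 to 68.5 CPM in WT and 68.0 to 104 in P-Apex1KO at 6-dpf, 25.6 to 39.4 and 51.9 to 71.3 at 10-dpf, and 41.0 to 43.7 and 64.6 to 139 at 14-dpf. Of 8 B cell markers matched, 2, 1 and 0 were called higher, led by Jchain (1.73 ± 0.24 at 6-dpf, adjusted p = 0.00386). Of 10 dendritic cell markers 2, 1 and 0 were called higher and 1, Fscn1, lower at 14-dpf, with Ccr7, the homing receptor of mature dendritic cells, at 1.69 ± 0.21 at 6-dpf (adjusted p = 0.00221). The summed level of that list, which holds the abundant Fscn1, was lower in P-Apex1KO at each of these times (214 to 257 against 275 to 401 CPM at 6-dpf, 164 to 193 against 203 to 250 at 10-dpf and 151 to 172 against 220 to 251 at 14-dpf). Within groups Cd80 went with the macrophage list at r = 0.68 (rho = 0.60, adjusted permutation p = 0.114 and 0.142). The part of these cells in the Cd80 and AW112010 differences was not tested.

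Markers of nerve tissue were read beside the 3 genes known from neurons. Of 12 neuron markers none was called higher at any time among the 6 to 9 tested, and 1, Uchl1, was lower at 14-dpf (-1.38 ± 0.33, log2, SE, adjusted p = 0.0338). Their summed level overlapped at 6-dpf (17.7 to 25.1 CPM in WT, 22.2 to 30.4 in P-Apex1KO), 10-dpf (21.0 to 27.9 and 17.8 to 28.8) and 14-dpf (22.4 to 28.2 and 17.3 to 22.9). Snap25 and Syt1, synaptic vesicle fusion genes, reached at most 0.141 and 0.190 CPM in any of the 30 libraries, and Nefl and Nefm, neurofilament genes, at most 0.411 and 0.347 CPM. Other markers of the list were well above that, Tubb3 reaching 20.7, Uchl1 14.1 and Stmn2 9.3 CPM. Schwann cell markers did differ, with 6 of 9 called higher at 6-dpf, 5 at 10-dpf and 1 at 14-dpf. The markers not called at 6-dpf all had changes below 0, S100b the farthest at -0.88 ± 0.26 (adjusted p = 0.0613). At 10- and 14-dpf all 9 were above 0, and the call at 14-dpf was Cdh19 (2.62 ± 0.48, adjusted p = 0.0147). Their summed level was 255 to 345 CPM in WT and 308 to 409 in P-Apex1KO at 6-dpf, 141 to 231 and 203 to 287 at 10-dpf, and 129 to 160 and 222 to 340 at 14-dpf. Within groups the Schwann list went with Ano3 at r = 0.26, with Anks1b at 0.21 and with Svop at -0.06, and the neuron list at 0.03, -0.04 and -0.22. None of these passed the adjustment. The part of Schwann cells in the differences of these 3 genes was not tested.

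Other tissues of the callus also differed between the genotypes at the same times. Of 10 skeletal muscle markers 8 were called higher at 6-dpf, with a summed level of 2640 to 4760 CPM in WT and 6120 to 14200 in P-Apex1KO, and 0 at 10- and 14-dpf, where the medians were 1.41 and 0.86. Of 8 osteoblast markers 7, 6 and 5 were called lower at 6-, 10- and 14-dpf, led by Alpl (-1.78 ± 0.28, adjusted p = 0.00578), Dmp1 (-1.72 ± 0.33, adjusted p = 0.0364) and Col1a1 (-2.55 ± 0.21, adjusted p = 0.000883). Of 8 cartilage markers 8 were called lower at 6-dpf, 0 either way at 10-dpf, and 7 higher and 1, Col11a1, lower (-0.80 ± 0.17, adjusted p = 0.0242) at 14-dpf (2 higher without sex in the model). The summed cartilage level at 14-dpf overlapped (3040 to 7520 CPM in WT, 4900 to 5760 in P-Apex1KO), and Col2a1, called higher in the model with sex, had a lower mean in P-Apex1KO (1870 against 2180 CPM). Of 7 osteoclast markers 0, 4 and 7 were called lower. Limb mesenchyme markers, of the lineage in which Apex1 is deleted, had 1 of 6 called at 10-dpf and 1 at 14-dpf, Pdgfra, which was lower both times (-0.61 ± 0.13 and -1.47 ± 0.15, adjusted p = 0.0312 and 0.00143).

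Relatives of the 6 genes gave too few calls to be set apart from genes at large. Of 26 paralogs 25 had an ID in the table, and of the 19 to 22 tested at a time, 1 was called higher and 1 lower at 6-dpf, 0 higher and 3 lower at 10-dpf, and 0 higher and 3 lower at 14-dpf, with medians of -0.10, -0.15 and -0.17. The share called higher, 4.76% at 6-dpf and 0% later, stands beside 5.31%, 3.01% and 4.28% of all genes tested. Scaled by library size alone, the counts were 2 higher and 0 lower, 0 and 1, and 0 and 2. The medians were then 0.08, -0.08 and 0.10, so the sign of the median depends on the scaling at 6- and 14-dpf. Ano5, an anoctamin of muscle and bone, was 1.04 ± 0.24 (log2, SE) higher at 6-dpf (adjusted p = 0.0275). Ano1, the calcium-activated chloride channel, was lower at 6-dpf (-0.70 ± 0.18, adjusted p = 0.0383), 10-dpf (-0.75 ± 0.09, adjusted p = 0.00798) and 14-dpf (-1.61 ± 0.14, adjusted p = 0.000928). Ano6, a lipid scramblase, was lower at 10-dpf (-0.39 ± 0.09, adjusted p = 0.0475) and 14-dpf (-0.73 ± 0.11, adjusted p = 0.00559), as was Ano8 (-0.42 ± 0.10 and -0.68 ± 0.16, adjusted p = 0.0484 and 0.0307). The count of called paralogs fell from 2 to 0 at 6-dpf without WT replicate 2 or P-Apex1KO replicate 3 and to 1 without WT replicate 4 or P-Apex1KO replicate 1. It fell from 3 to 1 at 10-dpf without WT replicate 1, 2 or 4 or P-Apex1KO replicate 1 or 3, and it rose to 5 at 14-dpf without P-Apex1KO replicate 3.

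Genes on the same chromosomes within 500 kb were compared to see whether the differences were local. Of 189 such genes 87, 84 and 87 were tested at 6-, 10- and 14-dpf, and 13, 8 and 5 were called higher, 14.9%, 9.52% and 5.75%, beside 5.31%, 3.01% and 4.28% of all genes. Of these, 9, 8 and 4 lie beside AW112010, in a region that holds the Ms4a genes of tetraspan proteins of leukocytes. Ms4a6b, 461 kb from AW112010, was called each time (1.10, 0.92 and 1.02 on the log2 scale, adjusted p = 0.000929, 0.0456 and 0.0107), as were Ms4a6c (0.76, 0.98 and 1.08) at 413 kb and Slc15a3 (0.84, 0.68 and 1.00), a lysosomal transporter gene on the other side. The nearest tested gene, Ms4a8a, 11.6 kb away on the same strand, did not pass (0.89 ± 0.33, 0.96 ± 0.31 and 0.73 ± 0.48, adjusted p = 0.119, 0.103 and 0.369), nor did Ccdc86 on the other side.

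Around the other 5 genes 4 of 57 neighbours tested were called higher at 6-dpf (Iscu, Selplg, Aldh4a1 and Pla1a), 0 of 55 at 10-dpf and 1 of 56 at 14-dpf (Wscd2). Genes that overlap them on the opposite strand, where stranded counting keeps the reads apart, were not called, namely Usp30 over Svop (-0.32 ± 0.14 at 6-dpf, log2, SE, adjusted p = 0.182), Timmdc1 over Cd80 (-0.04 ± 0.10, adjusted p = 0.858) and Gm5780 in Anks1b (-0.95 ± 0.48, adjusted p = 0.251). The nearest tested genes beside them, Ssh1 and Gm17833 at Svop, Bltp3b and Apaf1 at Anks1b, D930030I03Rik and Poglut1 at Cd80, Fibin and Or4f14b (tested at 3-dpf alone) at Ano3 and Pax7 at Klhdc7a, were not called at any time tested. Arhgef10l, 546 kb from Klhdc7a, was lower at 14-dpf (-0.58 ± 0.13, adjusted p = 0.0277). The total of neighbours called higher at 6-dpf fell to 8 without WT replicate 2 or P-Apex1KO replicate 1 and to 6 without WT replicate 4. At 10-dpf it was 0 without WT replicate 1 or 2 or P-Apex1KO replicate 1, 5 without P-Apex1KO replicate 3 and 14 without WT replicate 4. At 14-dpf it was 10 and 13 without P-Apex1KO replicates 1 and 2.

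**Figure D5:**
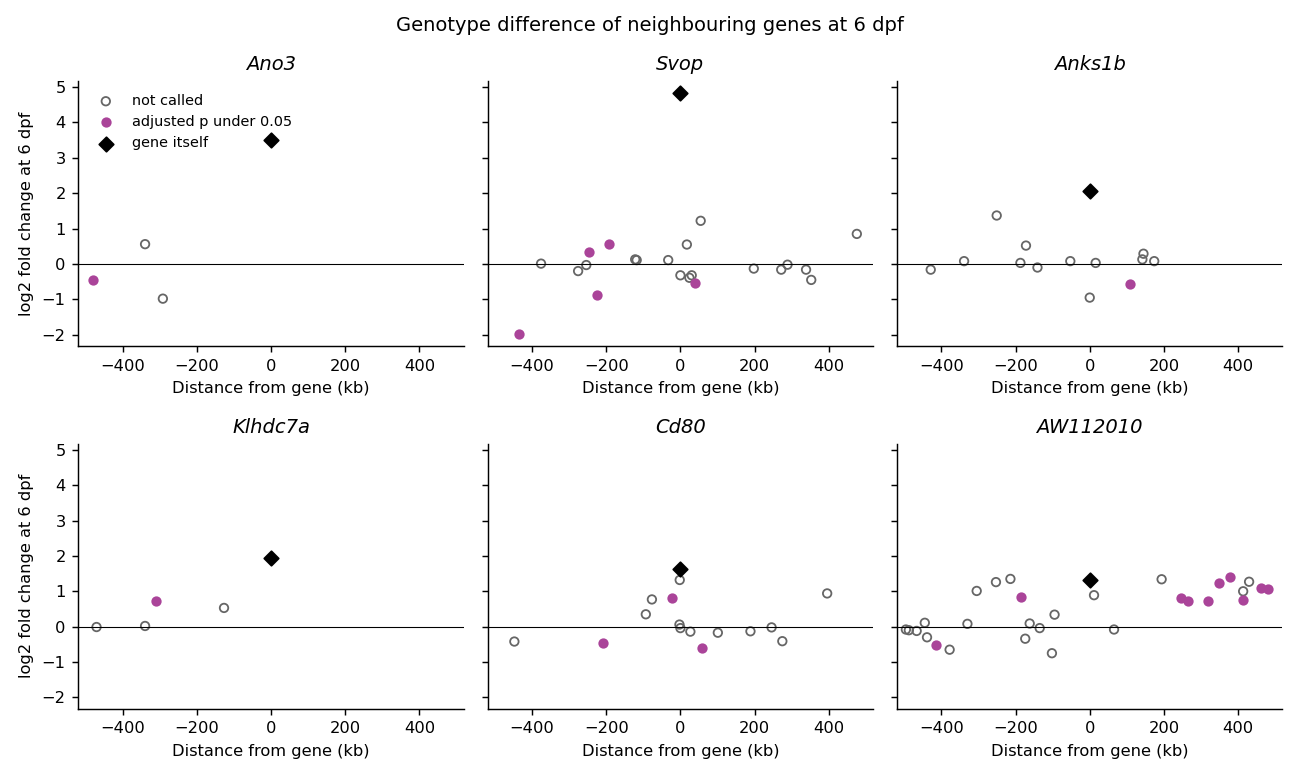
Log2 fold change of P-Apex1KO over WT at 6-dpf (y axis) of the genes tested within 500 kb of each of the 6 genes, by distance in kb (x axis), with filled points called at an adjusted p under 0.05 and the gene itself as a diamond at 0. Beside AW112010 9 of 30 tested neighbours were called higher, the Ms4a genes on 1 side and Slc15a3 on the other, and beside the other 5 genes 4 of 57 were.

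Stability of the difference can be given as a range, with no test. Over the alternatives of test, scaling, filter and model and with every mouse, the log2 fold change ran from 3.42 to 3.99 for Ano3 at 6-dpf, 3.54 to 3.69 at 10-dpf and 5.08 to 5.75 at 14-dpf. It ran from 2.05 to 2.63, 1.68 to 2.23 and 3.07 to 3.93 for Anks1b, and from 1.46 to 2.12, 2.35 to 2.77 and 2.09 to 2.51 for Klhdc7a. It ran from 1.5 to 1.83, 1.89 to 2.03 and 1.47 to 2.09 for Cd80 and from 1.15 to 1.53, 1.57 to 1.71 and 1.70 to 1.98 for AW112010. With single mice left out, the widest span at 6-, 10- and 14-dpf outside Svop was that of Klhdc7a at 10-dpf, 1.79 without P-Apex1KO replicate 1 and 2.68 without P-Apex1KO replicate 2. AW112010 at 10-dpf fell to 1.04 without P-Apex1KO replicate 1.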

How the data were processed

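RNA of fracture callus from 30 mice was measured. The authors aligned reads of rRNA- and globin-depleted stranded libraries with STAR 2.7.0d to mm39, counted uniquely mapped, reverse-stranded fragments per Ensembl gene with featureCounts, and deposited raw counts without normalization. Groups, sex and times came from the labels. The authors' own comparisons were not used.

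Each time point was fitted in R 4.3.3 with edgeR 4.0.16 (filterByExpr, TMM, genotype and sex, robust quasi-likelihood F tests, Benjamini-Hochberg adjustment over all genes, threshold 0.05). SE is the log2 fold change over the square root of F. All groups plus sex in 1 model tested sex. The 6 genes and all lists were chosen with earlier results of these data known. Genes named besides the 6 and Apex1 were, by rule, the 3 protein-coding genes most like each, the nearest and overlapping genes tested, the 3 largest called changes of a list at a time, and markers near 0, and the called neighbours named were chosen after their values were seen. Log2 CPM used a prior count of 2. List scores are means of log2 CPM, and correlations used deviations from group means with 100000 permutations within groups (numpy 2.4.6). Symbols and positions came from GENCODE M39 (54749 of 55416 IDs). Counting intervals are exact 95% intervals.

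Alternatives were DESeq2 1.42.0, scaling by its size factors or by library size alone, no filter or 10 counts in every sample, a model without sex, a joint model of all samples, a block for the replicate number, single mice left out, and windows of 200 and 1000 kb. In simulated counts every gene was given the same spread between mice, and 4-fold changes were placed only in genes with a mean of at least 10 counts. The fit recovered 97% of those tested at 3-dpf (19638 genes), 90.5% at 6-dpf (19982), 91.5% at 10-dpf (18736) and 37.5% at 14-dpf (19392). Where a list had fewer calls at 14-dpf, this therefore does not show smaller changes. The real spread can be larger, so the 97% does not show that 4-fold changes were absent at 3-dpf. Ano3 changed by 2.08 (log2) there and did not pass. Times 6 and 10 dpf were not compared, because the naming of samples changes there and batch cannot be told apart from time. P-Apex1KO differs from WT also in Cre, which cannot be told apart from the deletion.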

Additional observations from a re-analysis of the deposited data

Results flagged for a closer look

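Of the 30 gene and group sets with 4 or 5 mice that were examined for a mouse far from the others, 1 stood out, where chance flags about 1 in 20. Svop in WT replicate 4 at 14-dpf was at 0.0437 CPM, 1 read, while the other 3 WT mice of that time had 0.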

How the results depend on the processing

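The 6 genes kept a higher level in P-Apex1KO at 6-, 10- and 14-dpf wherever an alternative tested them, and all 6 were among the genes called at all 3 times in 15 of 29 settings. The genes were selected on these contrasts, so this describes stability and is no evidence about them. DESeq2 gave no call for Svop and Anks1b. Leaving out WT replicate 1, WT replicate 2 or P-Apex1KO replicate 1 at 10-dpf lost Svop, Anks1b, Klhdc7a and AW112010 each time. The number of genes called higher at all 3 times was 83, and 257 with DESeq2, 143 without sex, 231 with library size alone, 132 with no filter, 256 with all samples in 1 model, and 66 with the replicate block, under which Anks1b and Klhdc7a were no longer among them. With single mice left out it ran from 8 to 130, being 54 and 47 without WT replicates 2 and 4 and 34 without P-Apex1KO replicate 1 at 6-dpf, 16 and 21 without WT replicates 1 and 2 and 8 without P-Apex1KO replicate 1 at 10-dpf, and 48, 51 and 51 without WT replicates 2, 3 and 4 and 130 without P-Apex1KO replicate 1 at 14-dpf. The fit without WT replicate 1 at 14-dpf could not be made, since sex and genotype then coincide. Replicate numbers do not pair the mice (correlation of deviations -0.25 to 0.39), and the replicate block gave 0 called paralogs and 3 higher neighbours at 6-dpf and 29 higher costimulation and interferon gamma genes at 14-dpf.

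At 3-dpf, 1 of the 6 genes, 2 costimulation and interferon gamma genes and 1 neighbour were called with all samples in 1 model, and 0, 7 and 1 with DESeq2. Costimulation and interferon gamma genes called higher at 6-, 10- and 14-dpf were 32, 26 and 24 with DESeq2, 39 at 6-dpf and 23 at 14-dpf with library size alone, 21 at 10-dpf and 26 at 14-dpf with all samples in 1 model and 37 at 14-dpf without sex. With single mice left out they ran from 0 to 4 at 3-dpf, 11 to 34, 0 to 24 and 8 to 24. Called paralogs were 5 at 6-dpf with DESeq2, without sex or in 1 model, 1 at 10-dpf without sex or with library size alone, and 5, 10 and 12 at 14-dpf with DESeq2, without sex and in 1 model, and 0 to 3, 1 to 2 and 2 to 5 with single mice left out. Neighbours called higher were 23 at 6-dpf with library size alone, 3 at 10-dpf without sex, and 10, 21, 11 and 16 at 14-dpf with DESeq2, without sex, with library size alone and in 1 model. They were 3, 1 and 1 within 200 kb, and 6 to 14, 0 to 14 and 4 to 13 with single mice left out. For sex, DESeq2 called 1 of the 6 genes. The causes were not tested. With 10 counts required in every sample, Ano3, Svop, Anks1b and Klhdc7a could not be tested at every one of 6-, 10- and 14-dpf. Their few WT counts limit the size of their change. Ano3 and Klhdc7a were still tested at 3-dpf under that filter.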
